A study of Mus musculus with 8 samples.

Results

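Horizontal cells are inhibitory interneurons of the outer retina. Their processes end at the terminals of rods and cones, and they feed back on photoreceptor output. They were followed here through 5 genes of the 26824 in the table: Onecut1, Onecut2, Lhx1, Prox1 and Calb1, taken by symbol. The first 4 encode transcription factors of the horizontal cell lineage and Calb1 encodes calbindin, a calcium buffer used to stain these cells. All 5 were in the table and all 5 passed the filter on low counts.

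RNA sequencing was done on whole mouse retina from 3 wild-type mice (WT 1 to WT 3) and 5 mice labelled as Kv8.2 knockouts (KO 2 to KO 6), all untreated and 1 month old, with the 2 retinas of a mouse pooled. Kv8.2, encoded by Kcnv2, is a potassium channel subunit of photoreceptors, so the comparison asks whether genes of a cell type that contacts photoreceptors differ in mice labelled as lacking it. The strain, the knockout allele and whether the deletion is confined to a cell type are not given in the sources used here. The series text says that the authors left 2 KO samples out without naming them, so all 8 libraries were used.

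The libraries held 17759146 to 25188870 counts. Kcnv2 transcripts were present in every library, at 519 to 551 CPM in WT (counts of the gene for each 1e+06 counts of the library) and 398 to 585 CPM in the libraries labelled KO. It differed by -0.24 on the log2 scale (SE 0.14, edgeR adjusted p = 0.275) over all libraries. KO 3, at 447 CPM, and KO 4 to KO 6, at 398 to 409 CPM, lay below every WT library, and KO 2, at 585 CPM, above. The difference was -0.35 without KO 2 (edgeR adjusted p = 0.0298), -0.38 without KO 2 and KO 3 (0.000116) and -0.04 without KO 4 to KO 6 (0.903). No library lacked the transcript, so KO libraries are named by their labels throughout. KO 4, KO 5 and KO 6 stood apart: mitochondrial genes took 3.03% to 3.70% of their counts, 5.23% and 6.52% in KO 3 and KO 2, and 7.09% to 7.92% in WT. No WT library was like these 3, so what sets them apart and the genotype cannot be told apart within them, and the 5 genes and the calls named from other lists are given with and without them. KO 3 held lens transcripts at 5.02% of its counts (95% Wilson interval 5.01% to 5.03%), against 0.170% or less in every other library.

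ONECUT1 and ONECUT2 are homeodomain factors that act early in the making of horizontal cells, upstream of Lhx1 and Prox1. LHX1, a LIM homeodomain factor, places and maintains the cells in their layer, and PROX1, a homeodomain factor, is needed for their formation and stays on in the adult. Only Lhx1 is close to a marker of one type in the adult retina. Prox1 is also made in AII amacrine, bipolar and Müller cells and in lens fibres, and Calb1 in some amacrine and ganglion cells, so a whole-retina level of either is not that of horizontal cells alone.

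The genes lie on different chromosomes, and positions are those of GRCm38 in GENCODE M21. Onecut1 (ENSMUSG00000043013) lies at chr9:74861921-74891781 on the plus strand. Lhx1 (ENSMUSG00000018698) lies at chr11:84518284-84525535 on the minus strand. Prox1 (ENSMUSG00000010175) lies at chr1:190118035-190170714 on the minus strand. Calb1 (ENSMUSG00000028222) lies at chr4:15881264-15908064 on the plus strand. Onecut1 and Prox1 overlap other genes. Of the 31-base words of Onecut1 transcripts, 52.5% also occur in Gm20649, a long non-coding RNA on the same strand that overlaps it by 29556 bases. Prox1 overlaps the antisense gene Prox1os by 419 bases, and Lhx1os starts on the opposite strand just beyond the start of Lhx1. Whether the counting used strand is not given in the sources used here, so the division of counts within these pairs is uncertain.

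Starts of these divergent pairs are shown because Prox1 and Lhx1 were each measured beside an antisense partner. They are RefSeq sequences of the GRCm38.p6 build, and the RefSeq promoter table held 3 of the 5 genes. The first runs between the starts of Lhx1 and Lhx1os at chr11:84525536-84525659, read on the minus strand, and 66.1% of its 124 bases are G or C. The second is the 250 bases upstream of a Prox1 start at chr1:190170828-190171077, read on the minus strand, and lies inside the Prox1os gene. Capitals mark a CCAAT box on the opposite strand (ATTGG) in the first and a TATAAA box on the opposite strand (TTTATA) in the second.
Lhx1: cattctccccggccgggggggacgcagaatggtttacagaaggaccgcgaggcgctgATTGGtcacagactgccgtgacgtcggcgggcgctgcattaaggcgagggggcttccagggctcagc
Prox1: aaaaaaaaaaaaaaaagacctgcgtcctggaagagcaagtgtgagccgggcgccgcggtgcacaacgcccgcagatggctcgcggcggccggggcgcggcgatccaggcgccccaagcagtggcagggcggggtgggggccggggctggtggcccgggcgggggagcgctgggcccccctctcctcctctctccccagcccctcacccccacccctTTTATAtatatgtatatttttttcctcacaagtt
Motifs were searched on both strands in the 250 bases upstream of RefSeq starts, over 32851 such windows. The CCAAT box was held by 33.8% of them and the TATAAA box by 12.4%. The letters ATTGAT, the core of the sites that ONECUT factors bind, were held by 6.72%. This core was not in the windows of Prox1, Onecut1 or Lhx1, which says only that these letters are absent there.

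Per kilobase of longest transcript, a scale on which genes can be set side by side, Prox1 (24.6 ± 0.850 CPM per kilobase, SD, n = 3) and Calb1 (21.2 ± 0.909) were the most abundant of the 5 genes in WT. Lhx1 (1.73 ± 0.0926) and Onecut1 (1.62 ± 0.169) followed, and their WT libraries overlapped. Onecut2 was the lowest at 0.782 ± 0.0419. The order of the means was the same in the libraries labelled KO, at 27.2 ± 5.66 for Prox1, 15.1 ± 2.65 for Calb1, 1.81 ± 0.202 for Lhx1, 1.78 ± 0.211 for Onecut1 and 0.792 ± 0.120 for Onecut2 (SD, n = 5). All other levels below are TMM-scaled CPM, not per length.

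Of the 5 genes, 1 changed: Calb1 fell in the libraries labelled KO, and none rose. The 4 transcription factor genes did not pass the test. Among all 20167 genes tested, edgeR's quasi-likelihood test at an adjusted p under 0.05 called 7.58%, with 2.84% lower and 4.74% higher. DESeq2 called 18.5% of its genes and limma voom 40.9%, and of the 5 genes both also called Calb1 alone. The median log2 fold change was 0.07 over the 5 genes and 0.00 over all tested genes. Over the 5 genes it was 0.16 without KO 4 to KO 6 and -0.08 without KO 2 and KO 3.

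**Figure D1:**
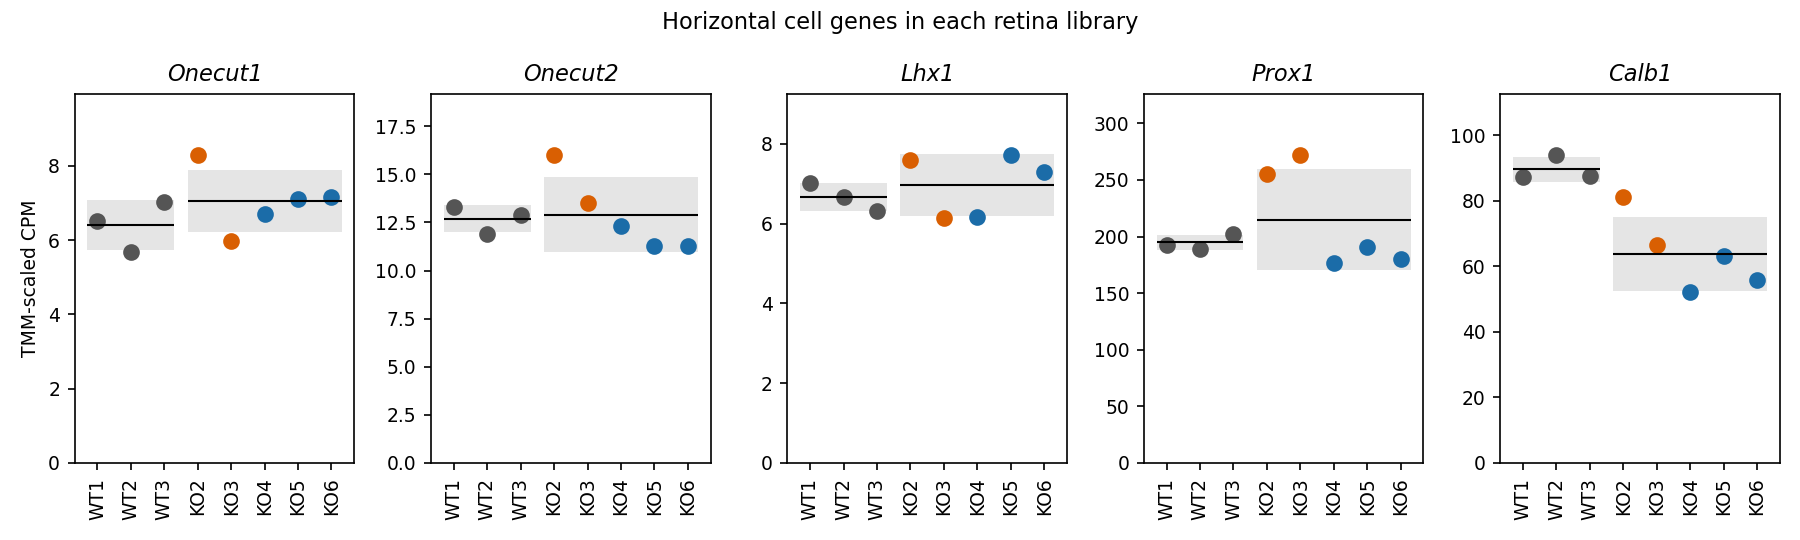
Level of each gene in TMM-scaled CPM (vertical axes start at 0 and differ between panels) in each library, WT in grey, KO 2 and KO 3 in orange, KO 4 to KO 6 in blue, with group means (lines) and 1 SD (bands). Every library labelled KO lies below every WT library for Calb1, from 52.2 to 81.1 against 87.2 to 94.0 CPM, and the groups overlap for the other 4 genes.

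Onecut1 stood at 6.52, 5.69 and 7.02 CPM in WT 1 to WT 3, and at 8.29, 5.99, 6.70, 7.10 and 7.15 CPM in KO 2 to KO 6. KO 2 was the highest and WT 2 the lowest, with the other libraries mixed between them. The means were 6.41 ± 0.671 CPM (SD, n = 3) and 7.05 ± 0.837 CPM (SD, n = 5), a difference of 0.14 on the log2 scale (SE 0.15, 95% interval -0.19 to 0.47, edgeR adjusted p = 0.587). It was 0.16 without KO 4 to KO 6 and 0.13 without KO 2 and KO 3 (edgeR adjusted p = 0.711 and 0.474). These levels rest on 119 to 191 counts a library.

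Gm20649, which shares much of the Onecut1 transcript, was counted in only some libraries labelled KO: 35 in KO 2, 7 in KO 3, 26 in KO 4, 4 in KO 5 and 0 in KO 6. It was at 0 in all 3 WT libraries and was not tested, because it fell under the filter on low counts. With these counts added to Onecut1, the level was 9.81, 6.32, 7.98, 7.31 and 7.15 CPM in KO 2 to KO 6, against the same WT values as before. The log2 fold change was then 0.27 (SE 0.17, 95% interval -0.10 to 0.64, edgeR adjusted p = 0.326), so the sum was not called either, while the estimate moved by over 1.5 times. Reads that fit both genes can be given to either, and the division between them was not tested.

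Onecut2 (ENSMUSG00000045991) lies on the plus strand at chr18:64340020-64400987. It stood at 13.3, 11.9 and 12.9 CPM in WT, and at 16.0, 13.5, 12.3, 11.3 and 11.3 CPM in KO 2 to KO 6. KO 2 and KO 3 lay above every WT library and KO 5 and KO 6 below, so the values labelled KO enclosed the WT range. The means were 12.7 ± 0.680 CPM (SD, n = 3) and 12.9 ± 1.96 CPM (SD, n = 5), with a log2 fold change of 0.02 (SE 0.14, 95% interval -0.29 to 0.33, edgeR adjusted p = 0.946). It was 0.21 (SE 0.14, edgeR adjusted p = 0.420) without KO 4 to KO 6 and -0.12 (SE 0.11, edgeR adjusted p = 0.412) without KO 2 and KO 3. The direction therefore turned with the libraries used, and no call was made either way.

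Onecut3, the remaining gene of the family and not one of the 5, was at 3.95 to 5.04 CPM in WT and 5.02 to 6.77 CPM in the libraries labelled KO. Its log2 fold change was 0.43 (SE 0.17, 95% interval 0.05 to 0.81), with an edgeR p of 0.0306 before and 0.138 after adjustment. Without KO 4 to KO 6 it was 0.43 as well (edgeR adjusted p = 0.329), and with offsets for GC content, 0.18 (edgeR adjusted p = 0.559). None of the 3 Onecut genes was therefore called.

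Lhx1 stood at 7.02, 6.68 and 6.31 CPM in WT, and at 7.60, 6.13, 6.16, 7.72 and 7.29 CPM in KO 2 to KO 6. KO 3 and KO 4 lay below every WT library and the other libraries labelled KO above. The means were 6.67 ± 0.356 CPM (SD, n = 3) and 6.98 ± 0.777 CPM (SD, n = 5), with a log2 fold change of 0.07 (SE 0.14, 95% interval -0.25 to 0.38, edgeR adjusted p = 0.801). The estimate was 0.04 without KO 4 to KO 6 and 0.09 without KO 2 and KO 3 (edgeR adjusted p = 0.919 and 0.632). The interval over all libraries reaches from a fold of 0.843 to 1.30, so a loss or gain of Lhx1 within that range remains possible. These levels rest on 125 to 175 counts a library. None of its 31-base words occurs in another gene.

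Lhx1os, the antisense partner of Lhx1, was at 2.71 to 3.95 CPM in WT and 1.87 to 3.78 CPM in the libraries labelled KO. Its log2 fold change was -0.30 (SE 0.26, edgeR adjusted p = 0.474), and -0.44 without KO 4 to KO 6 (edgeR adjusted p = 0.417). For every 100 Lhx1 counts there were 54.7, 59.2 and 43.0 Lhx1os counts in WT 1 to WT 3 and 38.9, 35.7, 30.4, 49.0 and 46.3 in KO 2 to KO 6. The ratios overlapped between the groups.

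Prox1 stood at 193, 189 and 202 CPM in WT, and at 255, 272, 177, 191 and 179.8 CPM in KO 2 to KO 6. KO 2 and KO 3 lay well above every WT library, while KO 4 and KO 6 lay below every WT library and KO 5 among them. The means were 195 ± 6.73 CPM (SD, n = 3) and 215 ± 44.8 CPM (SD, n = 5), a log2 fold change of 0.14 (SE 0.16, 95% interval -0.20 to 0.49, edgeR adjusted p = 0.585). The spread of the libraries labelled KO exceeded the difference between the groups.

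The Prox1 estimate followed the libraries used. Without KO 4 to KO 6 it was 0.44 (SE 0.10, 95% interval 0.20 to 0.67), with an edgeR p of 0.00233 before and 0.0960 after adjustment, in a fit that called 0.891% of all genes. Without KO 2 and KO 3 it was -0.08 (SE 0.056, edgeR adjusted p = 0.272). Leaving out KO 3 alone gave 0.05 (edgeR adjusted p = 0.803).

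Markers of other cells that make Prox1 also differed between these libraries. The 15 lens genes summed to 51505 CPM in KO 3, 229 CPM in KO 2, 29.1 to 1720.2 CPM in WT and 2.0 to 11.9 CPM in KO 4 to KO 6. With a lens score as covariate the Prox1 estimate was 0.19 (SE 0.11, edgeR adjusted p = 0.257). The 10 Müller glia genes summed to 6447 CPM in KO 2, above 4186 to 4888 CPM in the other 7 libraries. The 12 amacrine genes were also highest in KO 2, at 650.5 CPM, against 499 to 543 CPM in the other 7 libraries. A high sum in KO 2 was not confined to these cells. Rod genes summed to 55871 CPM there, against 38293 to 52322 CPM in the other 7 libraries. The cone and ganglion sums were not highest in KO 2. The 10 bipolar genes ranged over 1319.7 to 1611 CPM with overlap between the groups. The part of lens, Müller, amacrine and bipolar cells in the Prox1 levels of single libraries was not tested.

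Prox1os, antisense to Prox1, was at 12.1, 13.2 and 10.3 CPM in WT and at 9.03, 24.1, 9.60, 9.81 and 10.7 CPM in KO 2 to KO 6. The value in KO 3 was the highest, and KO 2, KO 4 and KO 5 lay below every WT library, with KO 6 inside the WT range. For every 100 Prox1 counts there were 8.85 Prox1os counts in KO 3, 3.55 in KO 2, 5.13 to 5.93 in KO 4 to KO 6 and 5.1 to 7.0 in WT. The log2 fold change was 0.09 (SE 0.31, edgeR adjusted p = 0.884) and -0.27 (SE 0.13, edgeR adjusted p = 0.163) without KO 3. It was 0.48 (edgeR adjusted p = 0.476) without KO 4 to KO 6.

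Calb1 stood at 87.2, 94.0 and 87.5 CPM in WT, and at 81.1, 66.4, 52.2, 63.3 and 56.0 CPM in KO 2 to KO 6. Every library labelled KO lay below every WT library, KO 2 closest and KO 4 to KO 6 farthest. Of all tested genes, 10.1% had every library labelled KO below every WT library, and 20.9% had groups that did not overlap in either direction. The means were 89.6 ± 3.84 CPM (SD, n = 3) and 63.8 ± 11.2 CPM (SD, n = 5). Calb1 fell by 0.49 on the log2 scale (SE 0.13, 95% interval -0.77 to -0.21), with an edgeR p of 0.00301 before and 0.0454 after adjustment. That is a fold of 0.712 (0.586 to 0.867). In whole retina, fewer cells that make Calb1 and less Calb1 RNA in each cannot be told apart.

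The Calb1 call lay close to the threshold and did not hold in each set of libraries. KO 2 and KO 3 against WT gave -0.28 (SE 0.10, 95% interval -0.52 to -0.04), with an edgeR p of 0.0268 before and 0.209 after adjustment. KO 4 to KO 6 against WT gave -0.64 (SE 0.076, edgeR adjusted p = 3.75e-05), in a fit that called 42.8% of all genes, 20.5% lower. Both use the same WT libraries. The call was lost on leaving out any single WT library (edgeR adjusted p-values 0.128 to 0.183) or KO 4, KO 5 or KO 6 (0.0880 to 0.0960).

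**Figure D2:**
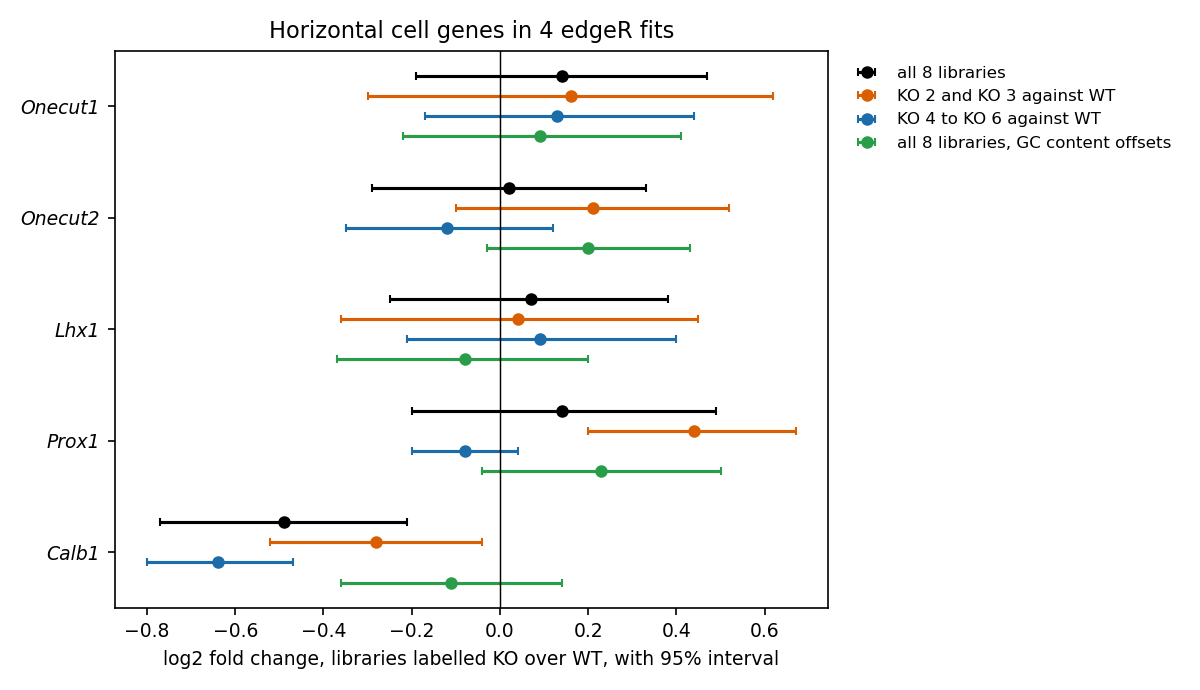
Log2 fold change of each gene (libraries labelled KO over WT, points) with its 95% interval (bars) in 4 edgeR fits: all 8 libraries, KO 2 and KO 3 against WT, KO 4 to KO 6 against WT, and all 8 libraries with offsets for GC content. Calb1 is below 0 in all 4 fits, from -0.64 to -0.11, Prox1 is at 0.44 only with KO 2 and KO 3, and the intervals of Onecut1, Onecut2 and Lhx1 hold 0 in every fit.

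Calb1 also had the most AT-rich transcript of the 5 genes, with 36.8% GC against 42.6% for Onecut2, 45.3% for Prox1, 49.7% for Onecut1 and 53.4% for Lhx1. Over all genes, fold changes were higher at higher GC content. The tested genes were cut into 10 classes of equal size by GC content. In the class of lowest GC content (28.1% to 40.5%), to which Calb1 belongs, the median log2 fold change was -0.30 over 1803 genes, and 7.43% of them were called lower. In the class of highest GC content the median was 0.26. The trend was steeper for KO 4 to KO 6 against WT, with a median of -0.46 in the lowest class, than for KO 2 and KO 3 against WT, with -0.10.

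With offsets that remove this trend library by library, the median of the lowest class was 0.01, and 6.93% of 18028 genes were called (2.9% lower and 4.03% higher). Calb1 was then at -0.11 (SE 0.11, 95% interval -0.36 to 0.14, edgeR adjusted p = 0.574) and lost the call. It was at -0.13 without KO 4 to KO 6 and -0.10 without KO 2 and KO 3, with edgeR adjusted p-values of 0.608 and 0.423. Such offsets also remove any true change shared by AT-rich genes, and which part of the fall in Calb1 is that of its GC class cannot be told apart here. The same offsets put Onecut2 at 0.20 (SE 0.10), Prox1 at 0.23 (SE 0.12), Onecut1 at 0.09 (SE 0.14) and Lhx1 at -0.08 (SE 0.13), none of them called, with edgeR adjusted p-values of 0.266, 0.281, 0.721 and 0.732.

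**Figure D3:**
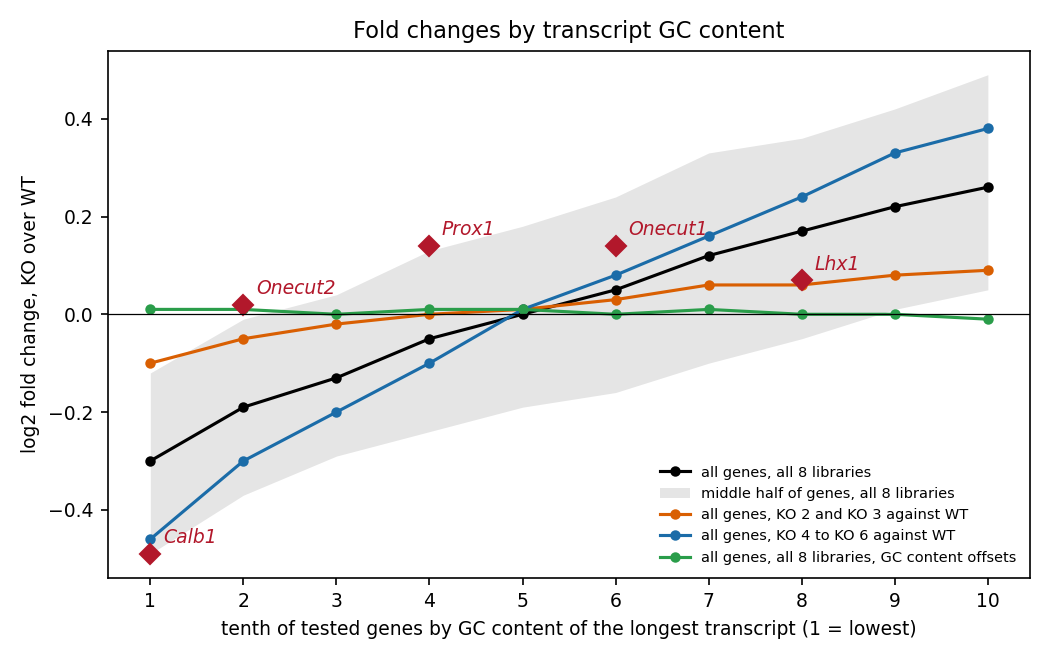
Median log2 fold change (libraries labelled KO over WT) in 10 equal classes of the tested genes ordered by GC content of the longest transcript, in the same 4 fits, with the middle 50% of genes for all 8 libraries in grey and the 5 horizontal cell genes as diamonds (all 8 libraries). Calb1 lies in the lowest class at -0.49, where the median gene is at -0.30.

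The ratio of Prox1 to Calb1, both made in horizontal cells, was 2.22, 2.01 and 2.31 in WT 1 to WT 3. It was 3.14, 4.09, 3.40, 3.02 and 3.21 in KO 2 to KO 6, above every WT library. Calb1 alone already separated the groups, as 20.9% of all tested genes did in one direction or the other, so the gap in the ratio adds no separate evidence. The libraries reached this ratio in different ways, since Prox1 was high in KO 2 and KO 3 and Calb1 was lowest in KO 4 to KO 6. The ratio carries the GC trend of both genes and was not tested.

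Across the 8 libraries the 5 genes did not share a common profile. The closest pair was Lhx1 and Onecut1, whose log2 CPM, centred over the libraries, differed by a root mean square of 0.127, and next came Prox1 and Onecut2 with 0.141. Calb1 was far from each of the others, at 0.276 to 0.360. Of the 12315 genes searched, 846 were nearer to Lhx1 than Onecut1 was, and 888 were nearer to Onecut1 than Lhx1 was. For the other pair, 228 were nearer to Prox1 than Onecut2 was, and 1588 were nearer to Onecut2 than Prox1 was. These are descriptions over 8 libraries of shared depth and GC trend.

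Genes with the profiles most like each member were named by the same measure. Nearest to Calb1 was Particl (0.0648), which was also called lower (log2 fold change -0.58, edgeR adjusted p = 0.0414), followed by Cdkl3 (0.0716) and Aig1 (0.0736). Particl, at 60.6% GC, belongs to the class of highest GC content, while Calb1 belongs to the lowest. Cdkl3 (44.5% GC) and Aig1 (41.8% GC) lay between. Nearest to Prox1 were Nras (0.0393), Sumf1 (0.0522) and L3mbtl3 (0.0532), each high in KO 2 and KO 3. Nearest to Onecut2 were Chd9 (0.0351), Gspt1 (0.0414) and Spin1 (0.0469). Nearest to Onecut1 were Zswim9 (0.0319), Jakmip2 (0.0339) and Gpr162 (0.0420), and to Lhx1 Smim20 (0.0535), Grina (0.0587) and Zkscan14 (0.0598). Apart from Particl, none of these 15 genes was called in edgeR.

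Over all libraries, no other factor of horizontal cell fate passed the edgeR test. Of 8 listed, Foxn4 was not in the table and Ptf1a, which commits progenitors to horizontal and amacrine cells, was at 0.364 CPM or less and not tested. Of the 6 tested, edgeR called 0, 2 had an unadjusted p under 0.05 (Sall3 and Onecut3), DESeq2 called 0 and limma voom 1, Sall3. Their median log2 fold change was 0.19. Rorb, which is also used by photoreceptors and had the highest CPM of them (not per length), was at 333 ± 36.7 CPM in WT and 405 ± 88.6 CPM in the libraries labelled KO (0.28, SE 0.17, edgeR adjusted p = 0.306). KO 2 alone held 555 CPM. With GC offsets Rorb was called higher, at 0.49 (edgeR adjusted p = 0.0477), and without KO 4 to KO 6 it was at 0.53 and not called (edgeR adjusted p = 0.160). Sall3, named after its values were seen, was at 0.54 (SE 0.23, edgeR adjusted p = 0.164). It was called higher without KO 2 and KO 3, at 0.78 (edgeR adjusted p = 0.00124), and was at 0.12 without KO 4 to KO 6 (edgeR adjusted p = 0.809).

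Among genes of the mature horizontal cell, 4 of 14 rose in edgeR, none fell, and the median log2 fold change was 0.28, where edgeR called 4.74% of all tested genes higher. DESeq2 called these 4 and also Nefh and Slc32a1 higher, and limma voom these 6 and Nefm and Septin4, beside 18.5% and 40.9% of all genes called in either direction. With GC offsets in edgeR the median of the 14 was 0.14 and 3 were called higher, beside 4.03% of all genes. Slc32a1, Nefh, Nefm and Septin4 were then at 0.14, 0.19, 0.14 and -0.05, and were not called. The 4 genes that rose in edgeR over all libraries were Megf10, Ntng2 and the guidance partners Sema6a and Plxna4. Megf10 is a receptor through which horizontal and starburst amacrine cells keep their spacing. Ntng2 encodes netrin-G2, a membrane-anchored protein also made in photoreceptors. None of the 4 is made in horizontal cells alone. For each, every library labelled KO was above every WT library, as in 10.8% of all tested genes. Vascular genes summed to 221 to 237 CPM in WT and 305 to 384 CPM in the libraries labelled KO, with no overlap, microglia genes to 52.8 to 57.8 and 61.5 to 82.1 CPM, also with no overlap, and Müller glia genes to 4186 to 4405 and 4363 to 6447 CPM, with overlap. Their part in these 4 genes was not tested.

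Megf10 stood at 23.3, 24.0 and 21.5 CPM in WT and at 31, 28.6, 37.1, 35.7 and 32.2 CPM in KO 2 to KO 6, a log2 fold change of 0.52 (SE 0.11, edgeR adjusted p = 0.0254). Ntng2 stood at 85.5, 75.8 and 85.1 CPM in WT and at 113, 94.3, 133, 147 and 164 CPM in KO 2 to KO 6 (0.66, SE 0.16, edgeR adjusted p = 0.0392). Both were higher in KO 4 to KO 6 than in KO 2 and KO 3. Sema6a went from 31.4 ± 1.12 CPM in WT to 41.8 ± 4.4 CPM (0.41, SE 0.10, edgeR adjusted p = 0.0403). Plxna4 went from 22.3 ± 0.326 to 28.9 ± 2.16 CPM (0.37, SE 0.10, edgeR adjusted p = 0.0442). Lrrc4, the receptor by which horizontal cell axons bind netrin-G2 on rods, was at 0.19 (SE 0.09, edgeR adjusted p = 0.222) and was named for that pairing after its value was seen.

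None of the 4 was called without KO 4 to KO 6, at 0.38 for Megf10, 0.33 for Ntng2, 0.25 for Sema6a and 0.42 for Plxna4 (edgeR adjusted p-values 0.111 to 0.224). With GC offsets, Megf10 (0.53, edgeR adjusted p = 0.0161), Ntng2 (0.38, 0.0317) and Sema6a (0.40, 0.0328) were called and Plxna4 (0.28, 0.118) was not. Nefl, a neurofilament gene of horizontal and ganglion cells, had the highest CPM of the 14 (not per length), at 555 ± 32.5 CPM in WT and 592 ± 101 CPM in the libraries labelled KO (0.09, SE 0.14, edgeR adjusted p = 0.708). Gja10, which encodes the connexin that couples horizontal cells and is among their most specific genes, had the lowest CPM, at 1.94 ± 0.778 and 1.71 ± 0.233 CPM (-0.19, SE 0.27, edgeR adjusted p = 0.692).

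Calb1 was set beside 9 other calcium-binding proteins of retinal neurons. In edgeR 0 of 9 were called, 1 had an unadjusted p under 0.05, DESeq2 called Rcvrn lower, and limma voom called Rcvrn, Calb2 and Necab1 lower and Hpca higher. Of all genes, DESeq2 called 18.5% and limma voom 40.9%. The median log2 fold change of the 9 was -0.14. The gene with the unadjusted p under 0.05 was Rcvrn, for the photoreceptor protein recoverin and the gene with the highest CPM of the 9 (not per length), at 1009 ± 82.5 CPM in WT and 837 ± 61.2 CPM in the libraries labelled KO (-0.27, SE 0.11, edgeR adjusted p = 0.129). With GC offsets it was called, at -0.43 (edgeR adjusted p = 0.0459), without KO 2 and KO 3 it was called at -0.31 (edgeR adjusted p = 0.00441), and without KO 4 to KO 6 it was at -0.20 and not called (edgeR adjusted p = 0.497). Of the 9 genes, 5 were called lower and 1 higher without KO 2 and KO 3, where 20.5% and 22.3% of all genes were, and without KO 4 to KO 6 edgeR called 0, with 0 at an unadjusted p under 0.05. Pvalb, with the lowest CPM, was at 23.4 ± 3.09 and 19.0 ± 2.69 CPM (-0.30, SE 0.14, edgeR adjusted p = 0.192).

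**Figure D4:**
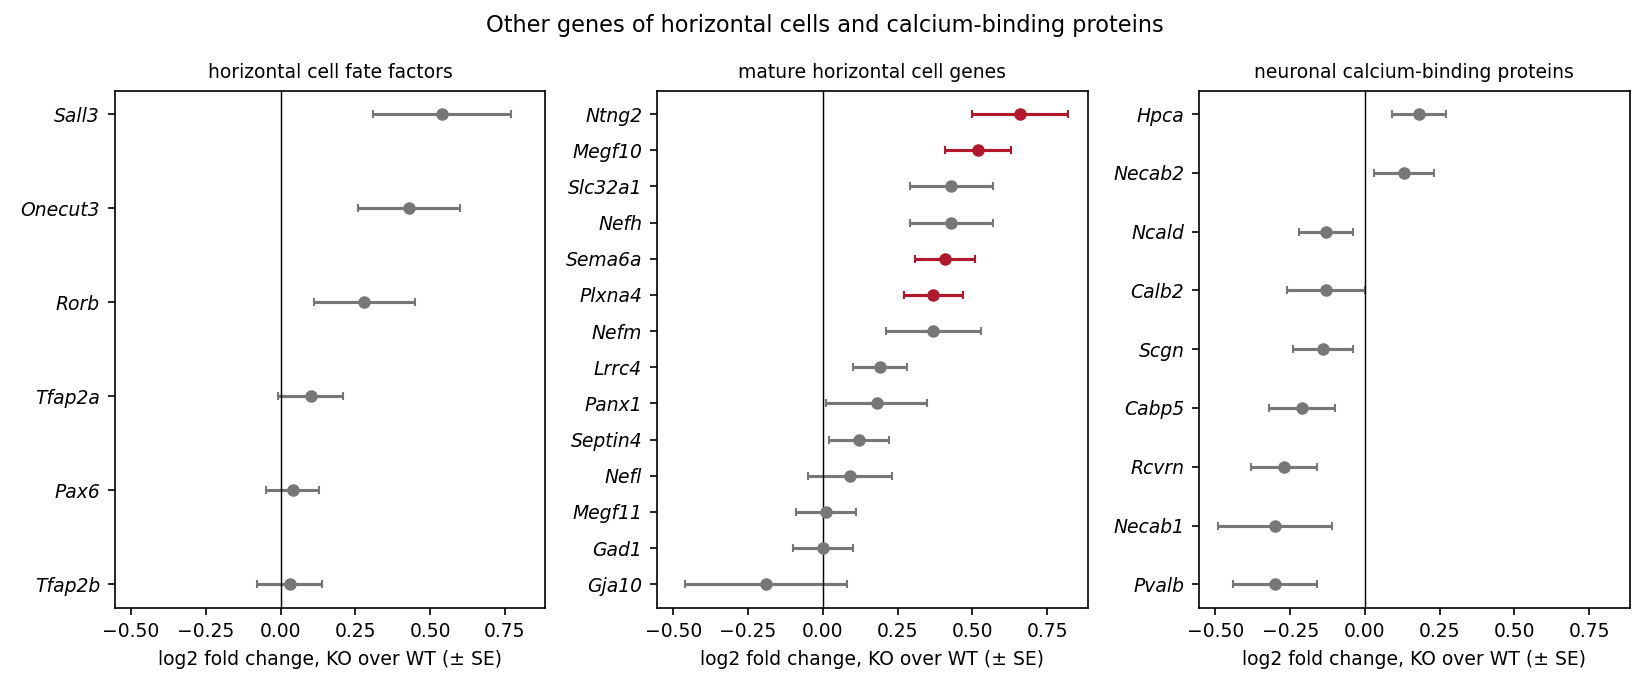
Log2 fold change (libraries labelled KO over WT) ± SE from the edgeR fit of all 8 libraries for the tested genes of 3 lists: horizontal cell fate factors (6), mature horizontal cell genes (14) and neuronal calcium-binding proteins (9), with called genes in red. The 4 called genes, Megf10, Ntng2, Sema6a and Plxna4, are all in the middle list and all above 0.

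Markers of the other cells that make Calb1 overlapped between the groups in their summed level. Of 12 amacrine genes, Slc18a3 rose (0.75, edgeR adjusted p = 0.0420) and Vip fell (-0.77, edgeR adjusted p = 0.0182), with summed levels of 510.5 to 519 CPM in WT and 499 to 650.5 CPM in the libraries labelled KO. Of 8 ganglion cell genes tested, edgeR called 0, 2 had an unadjusted p under 0.05, DESeq2 called 0, and limma voom called 4 higher and 2 lower. Of all genes, edgeR called 7.58% and limma voom 40.9%. The ganglion cell genes summed to 402 to 432 CPM in WT and 377 to 419 CPM in the libraries labelled KO. Of these 2 lists, ganglion markers had 1 gene at 0 in some library and amacrine markers none. The part of these cells in the Calb1 level was not tested.

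The photoreceptors that horizontal cells contact showed changes in both directions. Over all libraries edgeR called 4.74% of all tested genes higher and 2.84% lower. Of 9 cone genes Pde6h (-0.74, edgeR adjusted p = 0.00478), Gngt2 (-0.60) and Gnat2 (-0.47) fell and Pde6c rose (0.51). Arr3, cone arrestin, was not called over all libraries in edgeR (-0.72, adjusted p = 0.103) and was called lower without KO 4 to KO 6 (-1.33, edgeR adjusted p = 0.0293) and by DESeq2 and limma voom. The cone genes summed to 975 to 1215 CPM in WT and 707 to 930.3 CPM in the libraries labelled KO. Of 9 rod genes, Sag rose (0.87) and Gngt1 fell (-0.90). Of 10 bipolar genes, Gpr179 rose (0.48) and Gng13 fell (-0.81). Of 10 Müller glia genes Sox9 (0.62), Kcnj10 (0.54) and Abca8a (0.51) rose, and of 8 vascular genes Pdgfrb (0.93) and Kdr (0.92) rose. Of 8 microglia genes Tmem119 (0.94) and Csf1r (0.69) rose, and of 7 pigment epithelium genes tested none was called in edgeR, with 1 at an unadjusted p under 0.05. DESeq2 called Lrat higher, and limma voom called Lrat higher and Rpe65 and Tyrp1 lower, beside 18.5% and 40.9% of all genes. Of the 15 lens genes, with a median log2 fold change of 3.56, none was called by edgeR, DESeq2 or limma voom or had an unadjusted edgeR p under 0.05. Without KO 2 and KO 3 the median was -7.13, and 14 of 14 tested were called lower, where 20.5% of all genes were. Among the genes called over all libraries in the lists of other cell types, Pde6h, Pdgfrb and Kdr were also called without KO 4 to KO 6, and the rest were not (edgeR adjusted p-values 0.102 to 0.238). All of the rest kept their direction there. Sox9 was at 0.62, Kcnj10 at 0.53, Abca8a at 0.47, Gnat2 at -0.46, Gngt2 at -0.68 and Pde6c at 0.47. Sag was at 0.61, Gngt1 at -0.62, Gpr179 at 0.32 and Gng13 at -0.69. Tmem119 was at 0.91, Csf1r at 0.56, Slc18a3 at 0.55 and Vip at -0.56. With GC offsets Tmem119 (0.69), Csf1r (0.51), Gpr179 (0.26) and Slc18a3 (0.47) lost the call, with edgeR adjusted p-values of 0.103, 0.0602, 0.109 and 0.0776.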

How the data were processed

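Total RNA of 8 mouse retina libraries was sequenced. The authors deposited raw counts per gene, whole numbers for 26824 genes with at least 16 counts each over the libraries. The submitters' processing notes name Trim Galore, Salmon 1.10.2, DESeq2 and GRCm38 without roles, so the counts may be rounded Salmon estimates, and strand and annotation release are not given in the sources used here. The 106 rows with an identifier and no symbol were kept. Libraries held 17759146 to 25188870 counts, at which 3 counts, the floor used, equal 0.119 to 0.169 CPM. Floors and Wilson intervals cover counting error only, while intervals of fold changes include the spread between libraries.

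Counts were scaled by TMM in edgeR 4.0.16 (R 4.3.3), filtered by filterByExpr and compared, KO against WT over all 8 libraries without covariates, by the quasi-likelihood test, with Benjamini-Hochberg adjustment over 20167 genes and calls at an adjusted p under 0.05. Standard errors are the absolute log2 fold change over the square root of F. Log2 CPM used a prior count of 2. GC offsets were smoothed over 50 bins of genes with GENCODE M21 transcripts, which matched 22121 genes. On simulated counts, 137 of 200 genes changed 2-fold were called (68.5%), with 10 others among 19681. No within-group pair of libraries agreed within sampling noise (chi-square per degree of freedom 5.57 or more). Replicates are separate mice, per the labels' protocols.

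Named genes were the 5 members, Kcnv2, the called genes and the genes of highest and lowest mean CPM of the 3 related lists, the 3 nearest profiles of each member (mean log2 CPM of at least 1), and up to 2 called genes for each other list. Gnat2, Gngt2, Kcnj10, Lrat, Rpe65, Tyrp1, Calb2, Necab1, Hpca, Arr3, Nefh, Slc32a1, Nefm and Septin4 were added to complete small counts after their values were seen, and other additions are said to be so. Members and lists were chosen with earlier results of these data known. Alternatives were other scalings, filters, tools (DESeq2 1.42.0, limma 3.58.1), offsets, covariates and sets of libraries.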

Additional observations from a re-analysis of the deposited data

Results flagged for a closer look

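Prox1os in KO 3, at 24.1 CPM, lay far above the other 4 libraries labelled KO (9.03 to 10.7 CPM), and on the log2 scale its gap to the nearest of them was 0.831 of the whole range, past the limit of 0.71 for 5 libraries. The share of lens transcripts in KO 3, at 5.02% of counts, had a gap of 0.996 of the range. This share was examined in percent, not on the log2 scale. Both values are of the same library, and Prox1 itself, at 272 CPM, was not past the limit there. Of 11 values examined 2 passed the limit, where chance gives about 0.55. With a lens score as covariate the log2 fold change of Prox1os was 0.17 (SE 0.17, edgeR adjusted p = 0.548). The cause of either value was not tested.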

How the results depend on the processing

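Calb1 was below 0 under all 28 alternatives (log2 fold change -0.64 to -0.10) and called under 14 of them (adjusted p 3.75e-05 to 0.608). It lost the call with no filter on low counts (-0.48), without KO 4 to KO 6 (-0.28), with GC offsets (-0.11, and -0.13 and -0.10 without KO 4 to KO 6 or KO 2 and KO 3), and without any WT library, KO 4, KO 5 or KO 6. Leave-one-out fits spanned -0.59 to -0.42, and those without KO 2 or KO 3 kept the call. Members called were then 0 in place of 1, and 0 to 1 in leave-one-out fits. Onecut1 stayed above 0 and uncalled throughout (0.07 to 0.27). Onecut2 turned below 0 with library size alone (-0.02), limma voom (-0.10), length offsets (-0.07), without KO 2 and KO 3 (-0.12), and without WT 2 (-0.02) or KO 2 (-0.07), with leave-one-out fits from -0.07 to 0.06. Prox1 turned with limma voom (-0.05) and without KO 2 and KO 3 (-0.08), and Lhx1 with GC offsets (-0.08, and -0.01 and -0.13 in the 2 subsets). Neither was called under any alternative, and the cause of these turns was not tested.

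Replicate numbers 2 and 3 occur in both groups. Same-numbered deviations had a correlation of -0.19. This rests on libraries 2 and 3 of each group alone, so it cannot show whether same-numbered libraries share a batch. With the replicate block on these 4 libraries, 52 genes were called against 14 with no block and 527 with a crossed pairing chosen after seeing the data. Calb1 was at -0.30 in all 3 and no member or gene of the 3 related lists was called (0 and 0), on fewer samples.

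Over all genes, calls numbered 1529, and 3130 with DESeq2, 8248 with limma voom, 180 without KO 4 to KO 6, 8416 without KO 2 and KO 3, 2683 with the lens covariate, 4016 without KO 3 and the lens genes, and 151 and 5631 with GC offsets in the 2 subsets. Leave-one-out fits gave 132 (without WT 1) to 3992 (without KO 3). In the 3 related lists, 4 calls became 7 with DESeq2, 13 with limma voom, 1 with library size alone, 1 with length offsets, 0 without KO 4 to KO 6, 15 without KO 2 and KO 3, 9 without KO 3 and the lens genes, 0 and 13 with GC offsets in the 2 subsets, and 0 to 9 in leave-one-out fits. Kcnv2 was called lower without KO 2 (-0.35), without KO 2 and KO 3 (-0.38, and -0.39 with GC offsets) and with limma voom (-0.36). Megf10 and Ntng2 each lost the call in 12 of 28 alternatives, Sema6a in 13 and Plxna4 in 16. In that order, leave-one-out fits put them at 0.47 to 0.57, 0.57 to 0.77, 0.37 to 0.46 and 0.35 to 0.41. Leaving out KO 4 to KO 6 together gave 0.38, 0.33, 0.25 and 0.42. The GC offsets in subsets, the crossed pairing, the fit without KO 3 and lens genes and the sum with Gm20649 were added after seeing the data. Lhx1 and Onecut1 rest on 119 to 191 counts a library. Their SEs in edgeR, 0.14 and 0.15, were close to the 0.16 of Prox1, which had 3527 to 5866 counts. How far depth limited detection was not tested.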
